A study of Mus musculus with 32 samples.

Results

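The livers of mice lacking the phenylalanine tRNA gene tRNA-Phe-GAA-1-1 were compared with wild-type livers by ATAC-seq, which reads out open chromatin from the sites that a transposase can reach. The libraries are the 8 columns of the deposited table for that comparison, 4 from homozygous tRNA-Phe-GAA-1-1-/- mice (called Phe11) and 4 from wild-type mice, out of 32 libraries in the series, and each has a value at 401 tRNA loci. The mice were on a C57BL/6N background and matched for age. The labels' protocol gives them as males, and an age of 10 weeks is given for the study as a whole. The methods name both littermate matching and the use of different litters. The single-gene deletion came from mice edited with a guide that matches every tRNA-Phe gene and was then bred on, so Phe11 stands for 1 edited allele. Both genotypes occur in both batches named in the labels, with Phe11 replicates 4 and 6 and wild-type replicates 1 and 3 in batch 1, and Phe11 replicates 20 and 21 and wild-type replicates 22 and 24 in batch 2. The liver is bulk tissue, so fewer cells of a type and less open chromatin per cell cannot be told apart.

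Mammalian genomes carry many copies of most tRNA genes, scattered singly and in clusters. RNA polymerase III transcribes them from promoter elements inside the gene, the A box and the B box, which are bound by the factor TFIIIC. A tRNA gene in use lies in open chromatin, so accessibility is read as a measure of which copies are in use. In a locus name the amino acid is followed by the anticodon, then by a number for the isodecoder (genes with the same mature sequence) and a number for the copy. Each value below is a normalised count, the reads of short fragments over a gene and its 50 nt flanks divided by the library's size factor.

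The deleted gene lies on chromosome 5 at chr5:125406055-125406127 (GRCm38.p6, RefSeq). In GRCm39, from which its sequence was read, it is at chr5:125483119-125483191 on the minus strand. The guide, with its PAM in capitals, and the gene before and after editing show what was lost. Capitals in the gene mark 20 bases whose removal gives the Phe11 allele.
guide: gcgttagactgaagatctaaAGG
tRNA-Phe-GAA-1-1: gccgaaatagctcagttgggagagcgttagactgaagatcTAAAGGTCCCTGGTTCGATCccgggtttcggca
Phe11 allele: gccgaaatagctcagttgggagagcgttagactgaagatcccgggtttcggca

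Counted from 1 at the 5′ end of the 73-base gene, the deletion is placed at positions 41 to 60. The bases just before it are the same as its last ones, so a placement slightly nearer the 5′ end gives the same allele. As placed here, it took all 7 bases GGTTCGA of the B box core, which lie at positions 52 to 58. In either placement no match to those letters was left in the remaining 53 bases. The letters, searched on both strands, occur in 0.91% of 32851 RefSeq promoter windows of 300 bases (GRCm38.p6) and in 6 of the 7 tRNA-Phe genes. The 7 genes differ little. The genes 1-1 to 1-5 have the same 73 bases, 2-1 differs from them by C3T and G70A, and 3-1 differs by G57A, which falls inside the B box letters. The search allowed these exact letters only, so 3-1 was not shown to lack a B box. The 2 other isodecoders are shown with the bases that differ from 1-1 in capitals.
tRNA-Phe-GAA-2-1: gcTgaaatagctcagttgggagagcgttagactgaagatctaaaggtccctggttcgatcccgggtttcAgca
tRNA-Phe-GAA-3-1: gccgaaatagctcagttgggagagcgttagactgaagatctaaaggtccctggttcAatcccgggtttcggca
Read pairs that lie wholly inside 1 of the 5 identical genes cannot be placed, so the counts of these loci rest on fragments that reach a flank.

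The libraries held 6186 to 23754 reads over the 401 loci, with Phe11 replicate 21 the deepest and wild-type replicate 22 the shallowest. No read was seen at 25 loci. Wild-type replicates 1 and 22 differed by less than sampling noise (chi-square per degree of freedom 0.44, Benjamini-Hochberg adjusted lower-tail p = 6.8e-14 over 232 loci), although the labels put them in different batches. They were averaged and counted as 1 sample, which leaves 3 wild-type samples against 4 Phe11 samples. Wild-type replicates 3 and 24 (0.744, adjusted p = 0.00666) and Phe11 replicates 6 and 20 (0.764, adjusted p = 0.0103) were also closer than sampling gives, again across batches, and the main counts are given with these pairs averaged too. The labels do not say that replicates came from separate animals, while the study counts its control livers as separate mice. The exact permutation p-values measure the spread between these samples. The limma SEs and p-values rest mainly on a spread shared by loci of similar level, not on that of the single locus. For example, the SE was 0.22 at both tRNA-Phe-GAA-1-3 and tRNA-Phe-GAA-3-1, whose Phe11 SDs were 3.98 and 7.75. Without that dependence on level, limma called 11 loci in place of 22.

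The tissue label was checked against markers. Promoters of 6 of the 6 matched hepatocyte genes (Alb, Apoa1, Serpina1a, Cyp2e1, Hnf4a and Tat) lay in a peak of the deposited liver list, where 48.4% of 27025 genes did, and so did 2 of 2 Kupffer cell genes, 2 of 2 endothelial genes, 1 of 2 stellate genes, 0 of 2 cholangiocyte genes, 1 of 2 lymphocyte genes, 1 of 2 neuronal genes and 1 of 2 glial genes. A tRNA gene known for its use in the nervous system, tRNA-Arg-TCT-4-1, held 0.798% of the tRNA reads in wild-type brain and 0.0817% in wild-type liver (22 of 26921 reads in replicates 1, 3 and 24), but 0.0167% in Phe11 liver (9 of 54025). The share was also low, at 0.0113% (5 of 44098), in livers without tRNA-Phe-GAA-2-1, which are set against the same wild-type replicates. In another batch it was 0.0387% (10 of 25840) in the 3 wild-type livers. There it was higher, at 0.105% (16 of 15220), in livers labelled as lacking tRNA-Phe-GAA-3-1. The normalised count was 7.78 ± 1.46 (SD, n = 3) in the wild-type samples used here, against 1.78 ± 0.912 (SD, n = 4) in Phe11, and the groups did not overlap. The mean over all samples was under 10, so it was tested only in the fit without that filter, where its log2 change was -1.70 (limma, adjusted p = 0.0145). The part of this difference in the results below was not tested.

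The first question was how much signal remained at the deleted gene. The signal fell at tRNA-Phe-GAA-1-1 in every knockout liver. The 20 deleted bases lie in the counted window, and reads were aligned to the unedited genome. Less open chromatin and reads lost at the edited site therefore cannot be told apart at this locus. The normalised counts were 18.6, 21.9, 20.9 and 26.7 in wild-type replicates 1, 3, 22 and 24, and 3.07, 3.12, 5.31 and 1.24 in Phe11 replicates 4, 6, 20 and 21. The lowest wild-type value was above the highest Phe11 value. The mean went from 22.8 ± 3.57 (SD, n = 3) to 3.18 ± 1.67 (SD, n = 4), a log2 change of -2.59 on the log2(count + 1) scale (exact two-sided permutation test, p = 0.0286, the smallest that 3 against 4 samples allow). The signal did not reach 0, since 15 reads were left in the 4 Phe11 libraries against 60 in wild-type replicates 1, 3 and 24. By reads, 12.1% of the wild-type level was kept, with a 95% interval of 6.39% to 21.6% that covers counting error only. The log2 change was -2.37 within batch 1 and -2.71 within batch 2. Its mean passed the filter on low values only through the wild-type group, and in the limma fit without that filter the adjusted p was 1.48e-06.

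The second question was whether the other 6 tRNA-Phe genes made up for the loss. Their summed signal did not pass the test in either direction. Wild-type livers had 164 ± 2.62 (SD, n = 3) normalised counts over the 6 intact loci and Phe11 livers 160 ± 3.77 (SD, n = 4), or 97.7% (p = 0.229 by an exact two-sided permutation test). With the deleted gene included, the sum fell from 186 ± 3.74 (SD, n = 3) to 163 ± 4.90 (SD, n = 4), a remainder of 87.4% (p = 0.0286 by the same exact permutation test, again its smallest value). In wild-type liver the deleted gene held 12.2% ± 1.72 (SD, n = 3) of the 7-gene sum. The highest share belonged to another copy, 1-5, with 29.7% ± 2.46 (SD, n = 3) before and 34.3% ± 2.92 (SD, n = 4) after the deletion.

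**Figure D1:**
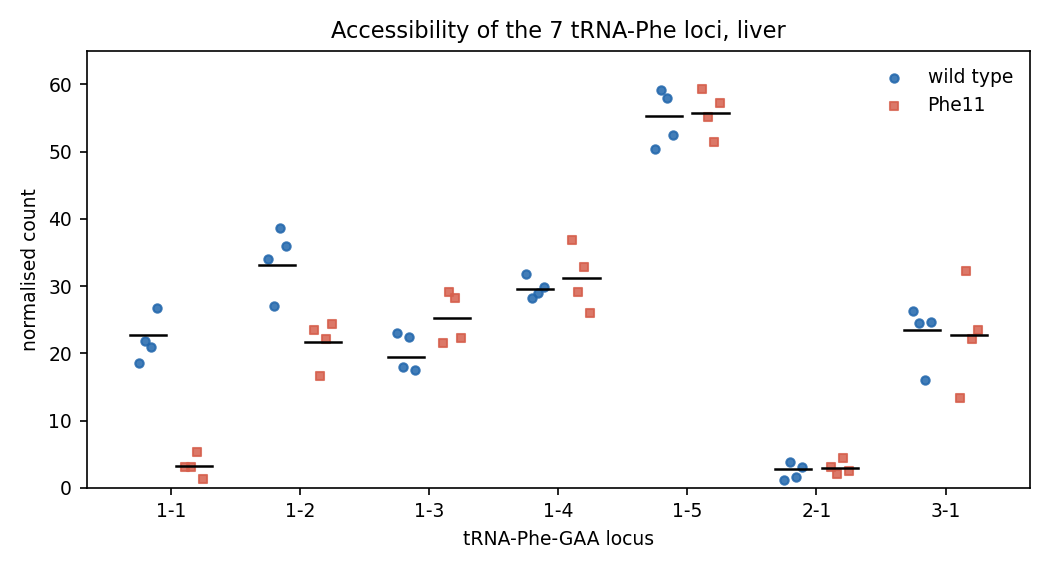
Normalised counts of the 7 tRNA-Phe loci (vertical axis) in each wild-type (circles) and Phe11 (squares) liver library, with group means as bars (wild-type replicates 1 and 22 averaged first). At 1-1 all Phe11 values lie between 1.24 and 5.31, below the wild-type values of 18.6 to 26.7, and 1-5 stays the highest locus.

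Of the intact copies, 1-2 was the one that passed the test. There the normalised counts were 34, 27, 38.6 and 36 in wild-type replicates 1, 3, 22 and 24 and 23.5, 16.6, 22.1 and 24.3 in Phe11 replicates 4, 6, 20 and 21, so the groups did not overlap. Its log2 change was -0.59 ± 0.21 (SE; limma, adjusted p = 0.0423) among 209 loci tested. That call was lost in 7 of the 8 fits that left out 1 library, with adjusted p between 0.0502 and 0.225 by limma (all but Phe11 replicate 4), and with the close pairs averaged (adjusted p = 0.131 by limma). Of such fits, those without wild-type replicate 1 or 22 keep the other of them, so no sample is removed. At 1-3 the mean was 19.4 in wild type and 25.3 in Phe11, with a log2 change of 0.36 ± 0.22 (SE) that did not pass (adjusted p = 0.383 by limma). The other copies were close to wild type. The log2 change was 0.07 ± 0.19 (SE) at 1-4, 0.01 ± 0.16 at 1-5 and -0.10 ± 0.22 at 3-1. The remaining copy, 2-1, had 1.10 to 4.43 normalised counts in every library, too few to be tested.

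As shares of the 6 intact loci, 1-2 went from 20.2% ± 2.96 (SD, n = 3) to 13.6% ± 2.44 (SD, n = 4) and 1-3 from 11.9% ± 1.61 to 15.8% ± 2.15. The share of 1-5 was 33.8% ± 2.59 in wild type and 35% ± 2.72 in Phe11. Among the peaks the authors called in these libraries, 6 of the 7 tRNA-Phe genes lay in a peak, and 2-1 was the one that did not.

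Across all tRNA genes, limma called 22 of 209 loci (10.5%) at a threshold of 0.05 on the adjusted p. Of these, 14 were lower in Phe11 (6.7% of loci) and 8 were higher (3.83%). The 192 loci with a mean under 10 were not tested in this fit. The median log2 change over all loci tested was 0.06. Groups did not overlap at 14.4% of loci tested, 16 lower (7.66%) and 14 higher (6.7%), and at 16 of the 22 called loci. The call count was 20 by edgeR on recovered reads (5 higher, 15 lower), of which 19 were shared, 14 with the close pairs averaged (3 higher, 11 lower) and 5 by DESeq2 (all lower).

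The lowered loci fell into a group of 3 with large losses and a group of 11 with smaller ones. The 3 were the deleted gene, tRNA-Ala-TGC-4-1 and tRNA-Asp-GTC-1-7, with log2 changes between -2.59 and -2.17. The other 11 lay between -0.79 and -0.31. The first 2 passed the filter on low values only through the wild-type group, so their p is taken from the fit without the filter.

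**Figure D2:**
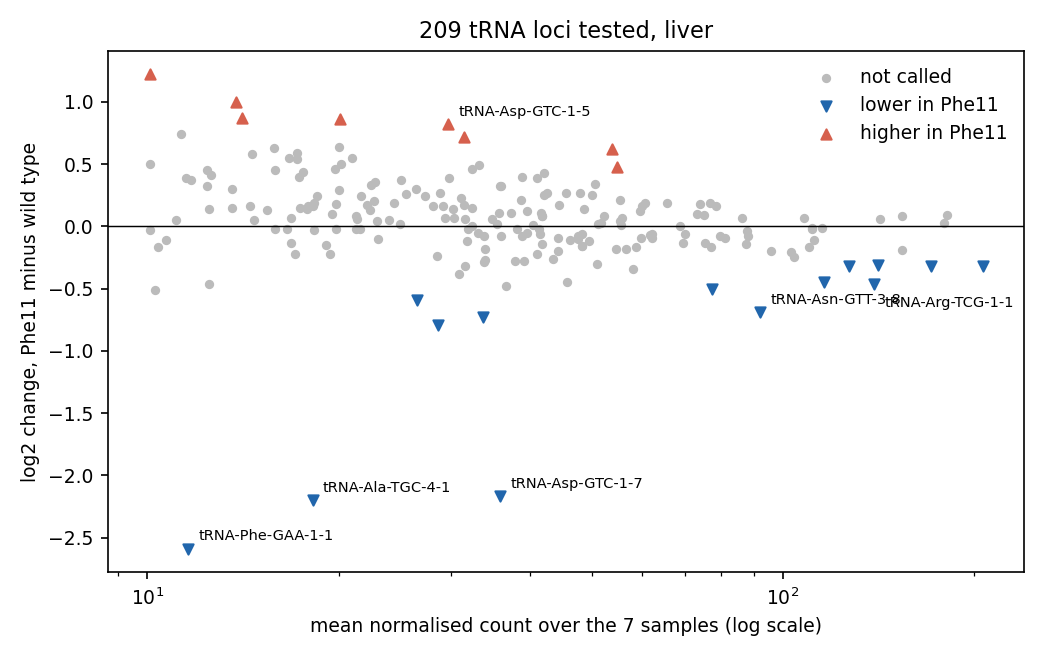
Log2 change, Phe11 minus wild type (vertical axis), against the mean normalised count over the 7 samples (horizontal axis, log scale) for the 209 loci tested. Triangles are the 22 called loci, and 3 lowered loci stand below -2 while all other called loci lie between -0.79 and 1.22.

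The largest change beside the deleted gene was in tRNA genes for aspartate and alanine. tRNA-Asp-GTC-1-7 encodes a tRNA that reads the aspartate codons. Its normalised counts were 70.1, 65.6, 64.4 and 62.7 in wild-type replicates 1, 3, 22 and 24 and 18.4, 13.5, 12.4 and 11.5 in Phe11 replicates 4, 6, 20 and 21. The 4 wild-type values were close together and far above all Phe11 values. The log2 change was -2.17 ± 0.20 (SE; limma, adjusted p = 6.69e-23), and 20.1% of the wild-type level was kept by reads (95% counting interval 15.1% to 26.5%).

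tRNA-Ala-TGC-4-1, a gene for an alanine tRNA, also fell. It had 38.3, 33.5, 38.6 and 28.8 normalised counts in wild-type replicates 1, 3, 22 and 24 and 6.13, 9.36, 5.31 and 5.77 in Phe11 replicates 4, 6, 20 and 21, again without overlap. In the fit without the filter on low values its log2 change was -2.20 ± 0.29 (SE; limma, adjusted p = 6.46e-08), and 19.1% was kept by reads (95% counting interval 12.5% to 28.5%). The call at tRNA-Asp-GTC-1-7 held in each of the 8 fits that left out 1 library.

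A pair of further genes with these anticodons, both with a mean under 10 over the samples, also fell in the fit without the filter on low values. That fit called 17 of 376 loci (4.52%), 12 of them lower (3.19%). tRNA-Asp-GTC-1-6 went from 15.6 ± 0.310 (SD, n = 3) normalised counts to 4.76 ± 2.85 (SD, n = 4), with a log2 change of -1.70 (limma, adjusted p = 0.00417). tRNA-Ala-TGC-2-1 went from 12.1 ± 5.25 (SD, n = 3) to 2.95 ± 0.627 (SD, n = 4), with a log2 change of -1.67 (limma, adjusted p = 0.0103). In both, every Phe11 library lay below every wild-type sample.

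No other gene of these anticodons was called lower. Of the 16 tRNA-Asp-GTC loci, 7 were tested, and tRNA-Asp-GTC-1-5 rose, with 20.8, 20.6, 17.7 and 20.6 normalised counts in wild-type replicates 1, 3, 22 and 24 and 34.7, 47.8, 32.8 and 32.2 in Phe11 replicates 4, 6, 20 and 21. The log2 change was 0.82 ± 0.20 (SE; limma, adjusted p = 0.00132), and its call held without any 1 library. The genes 1-1, 1-8, 1-10, 1-13 and 2-1 of that anticodon had log2 changes between -0.22 and 0.39 and did not pass. Of the 11 tRNA-Ala-TGC loci, 3 were tested, and 1-1 and 3-1 had log2 changes of 0.14 and 0.34 that did not pass.

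**Figure D3:**
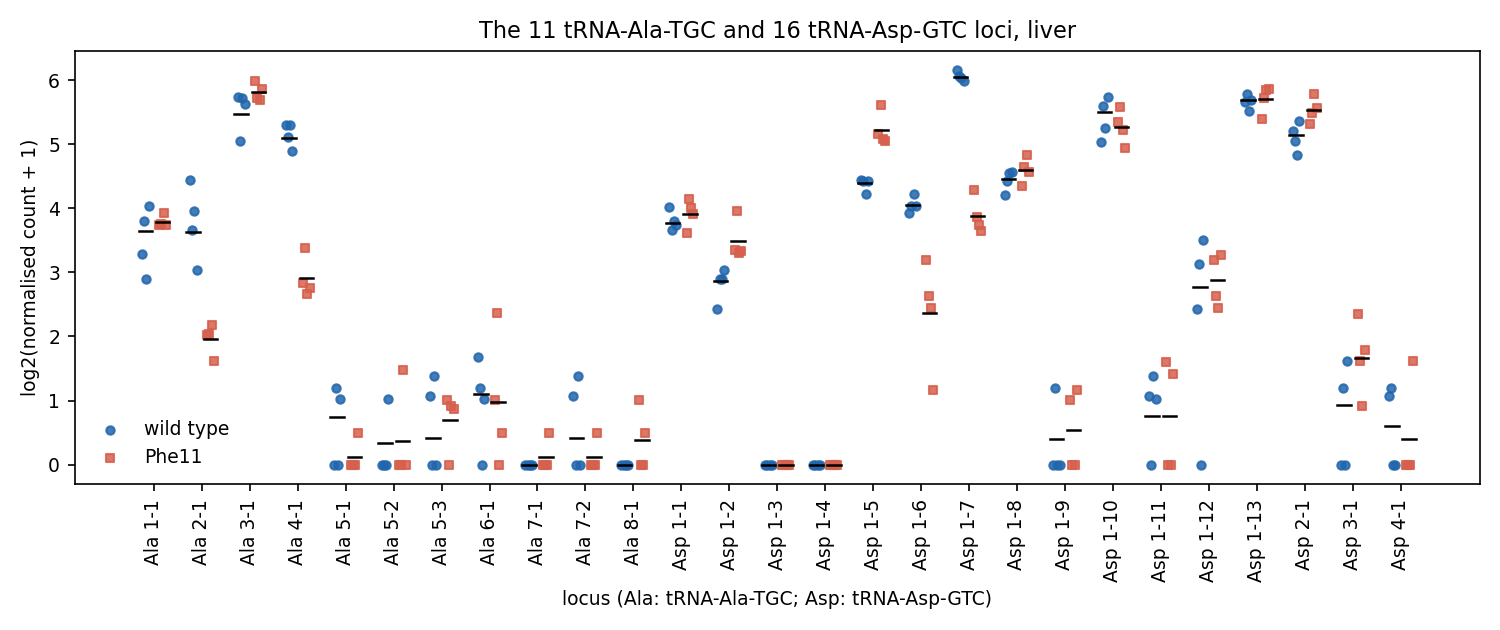
Log2 of the normalised count plus 1 (vertical axis) at the 11 tRNA-Ala-TGC and 16 tRNA-Asp-GTC loci in each wild-type (circles) and Phe11 (squares) liver library, with group means as bars. The groups separate downwards at Ala 2-1, Ala 4-1, Asp 1-6 and Asp 1-7 and upwards at Asp 1-2 and Asp 1-5, and many other copies lie near 0.

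Summed over all copies, the loss was smaller than at the single genes. The 16 tRNA-Asp-GTC loci together went from 281 ± 19.4 (SD, n = 3) normalised counts to 250 ± 16 (SD, n = 4), with ranges that overlapped. Without 1-6 and 1-7 the sum was 200 ± 21.8 in wild type and 231 ± 18 in Phe11. The 11 tRNA-Ala-TGC loci together had 105 ± 13.6 in wild type and 81.0 ± 4.43 in Phe11 (77.2%), and these ranges did not overlap (92.7 to 120 and 76.1 to 86.9). Without 2-1 and 4-1 the values were 59.3 ± 10.3 and 71.4 ± 4.64. The 4 fallen loci, which were chosen by their values, kept 22.4% of their wild-type sum. These sums were not tested.

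The deleted gene stands in a cluster of 5 tRNA genes in RefSeq (GRCm38.p6), and the other 4 have the same anticodons as the fallen genes. They are an alanine gene with anticodon TGC (n-TAtgc10, 1805 bp to the lower side), an aspartate gene with anticodon GTC (n-TDgtc15, 448 bp to the lower side), another such aspartate gene (n-TDgtc14, 2961 bp to the upper side) and another such alanine gene (n-TAtgc5, 3417 bp to the upper side). No other tRNA gene lies within 100 kb. RefSeq and the table hold the same numbers of genes with these anticodons, 16 and 11, but no table used here pairs their names. The study's text places tRNA-Ala-TGC-2-1 beside the deleted gene. For the other table loci it was not established which of them is which gene of the cluster.

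The peak list covers that region in its own intervals, from the same libraries. It holds 125852 consensus peaks, of which the authors list 4.14% as differing between the genotypes, with a mean log2 concentration (their normalised read level) for each group and no value per library. Within 100 kb of the gene, 8 of 70 peaks are listed (11.4%), 5 lower and 3 higher in Phe11. The 5 lower ones all lie closer to the gene than the 3 higher ones. The peak over n-TDgtc15 and the deleted gene (chr5:125404812-125406870) had an authors' mean of 7.49 in wild type and 5.69 in Phe11. The peak over n-TDgtc14 (chr5:125408764-125409340) had 6.36 and 4.62, and the peak over n-TAtgc5 (chr5:125409448-125409883) had 5.56 and 3.53. Lower levels also stood at the peak over n-TAtgc10 (chr5:125403561-125404352), with 5.70 and 5.02, and at a peak that holds no tRNA gene (chr5:125408071-125408460), with 4.15 and 2.95. On the upper side of the deletion the level fell by 1.74 and 2.03 on the log2 scale at the tRNA genes, and at the alanine gene on the lower side it fell by 0.68. These peaks were selected by the authors for differing, so the values are a description.

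**Figure D4:**
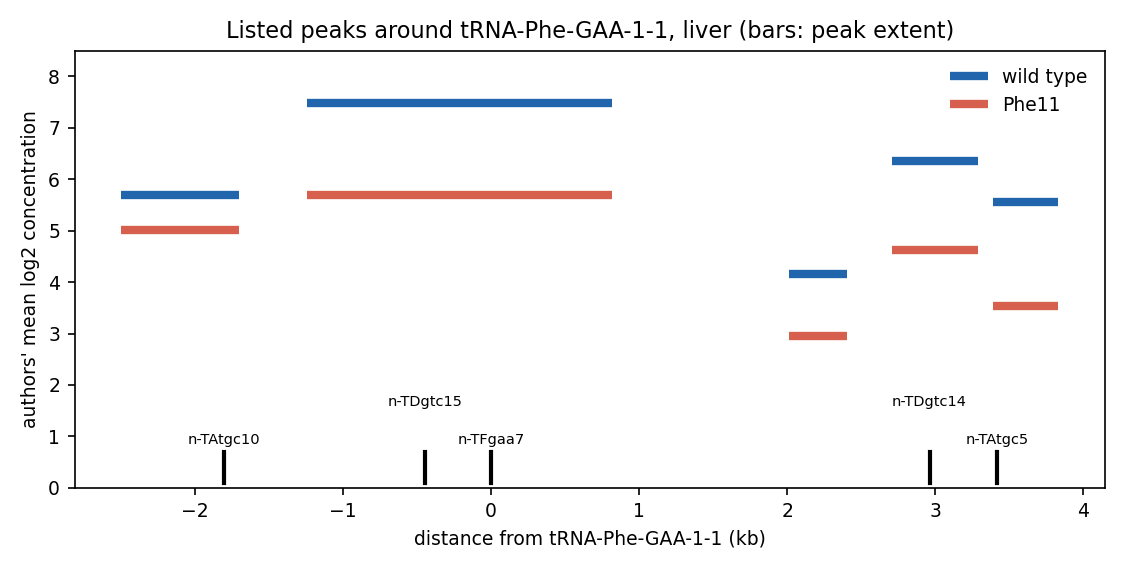
The authors' mean log2 concentration (vertical axis) of the 5 listed peaks nearest to tRNA-Phe-GAA-1-1 in wild type and Phe11, drawn over each peak's extent, against distance from the gene in kb along increasing coordinates (horizontal axis), with the 5 tRNA genes as ticks. Each Phe11 level lies below the wild-type level of the same peak.

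Outside the cluster the listed peaks over tRNA genes ran the other way. Of 403 RefSeq tRNA genes, 33 lay in listed peaks. The 5 of the cluster were lower, and the other 28, among them genes for tyrosine, methionine and serine tRNAs, were all higher in Phe11, by 0.28 to 1.48 on the log2 scale. Some of these genes share a peak and so a value, such as n-TMcat15, n-TLaag7 and n-TLaag5. The 28 genes therefore stand for fewer peaks. Counted by peak and not by gene, 2457 of all 5214 listed peaks were higher (47.1%) and 2757 lower. The table's 11 smaller losses therefore have no counterpart among the listed peaks. In the whole genome, 16 RefSeq genes have the aspartate anticodon GTC, and 7 lay in a consensus peak. Of these, 4 were in listed peaks, 2 lower (those of the cluster) and 2 higher. Of 11 genes with the alanine anticodon TGC, 4 lay in a peak and 3 in listed peaks, 2 lower (those of the cluster) and 1 higher. The peak over the intact gene 1-5 (chr19:12002122-12002674) is listed as higher in Phe11, with an authors' mean of 7.18 in wild type and 7.64, while the table's log2 change at that gene was 0.01.

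Among the smaller losses, tRNA-Asn-GTT-3-8, a gene for asparagine tRNA, was the firmest. It went from 118 ± 5.04 (SD, n = 3) to 72.8 ± 4.15 (SD, n = 4) normalised counts, a log2 change of -0.69 ± 0.13 (SE; limma, adjusted p = 1.15e-05), and no Phe11 library overlapped wild type. The arginine gene tRNA-Arg-TCG-1-1 fell from 165 ± 6.01 (SD, n = 3) to 120 ± 4.2 (SD, n = 4), with a log2 change of -0.46 (limma, adjusted p = 9.09e-04). Either gene was called by edgeR and DESeq2 too, and in all 8 fits that left out 1 library.

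Other lowered genes were tRNA-Gly-GCC-4-1 (glycine, log2 change -0.79 ± 0.20), tRNA-Ser-GCT-3-1 (serine, -0.73 ± 0.19), tRNA-Cys-GCA-3-3 (cysteine, -0.50 ± 0.14) and tRNA-Met-CAT-1-1, a gene for the methionine tRNA of elongation (-0.45 ± 0.12). The tyrosine genes tRNA-Tyr-GTA-2-1 and tRNA-Tyr-GTA-4-1 both had -0.32 (SE 0.10 and 0.09), tRNA-His-GTG-2-2 had -0.32 ± 0.11 and tRNA-Arg-ACG-3-1 had -0.31 ± 0.11 (each ± is an SE). Each of these 8 calls was lost in 1 to 5 of the fits that left out 1 library. The first 4 were lost without wild-type replicate 3 (adjusted p = 0.065 at tRNA-Gly-GCC-4-1 and 0.0844 at tRNA-Cys-GCA-3-3, by limma) or wild-type replicate 24 (adjusted p = 0.0741 by limma at tRNA-Ser-GCT-3-1, tRNA-Cys-GCA-3-3 and tRNA-Met-CAT-1-1). The last 4 genes, for tyrosine, histidine and arginine, had mean counts of 127 to 206 and lost their calls (adjusted p between 0.251 and 0.292 by limma) when a curve along the level of the loci was removed from each sample.

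The raised genes had lower counts. tRNA-Leu-TAG-2-1, a leucine gene, had 25.2, 21.9, 20.9 and 22.6 normalised counts in wild-type replicates 1, 3, 22 and 24 and 29.6, 47.8, 39.8 and 35.5 in Phe11 replicates 4, 6, 20 and 21. No Phe11 value reached down to wild type, and the log2 change was 0.72 ± 0.19 (SE; limma, adjusted p = 0.00455). A second leucine gene, tRNA-Leu-CAA-1-1, went from 41.1 ± 7.49 (SD, n = 3) to 63.5 ± 10.2 (SD, n = 4), with a log2 change of 0.62 (limma, adjusted p = 0.00326). The serine genes tRNA-Ser-CGA-1-1 and tRNA-Ser-TGA-1-1 rose by 0.86 ± 0.24 and 0.48 ± 0.16 (log2, SE), with ranges that overlapped between the genotypes. None of these 4 calls held in all fits that left out 1 library. At tRNA-Leu-TAG-2-1 the call was lost without Phe11 replicate 6 (adjusted p = 0.088 by limma) and without wild-type replicate 24 (0.0565), and tRNA-Leu-CAA-1-1 was lost without wild-type replicates 3 or 24 or Phe11 replicates 6 or 20 (0.0591 to 0.0744). With the close pairs averaged the adjusted p was 0.116 at tRNA-Leu-CAA-1-1, 0.0699 at tRNA-Leu-TAG-2-1 and 0.116 at tRNA-Ser-CGA-1-1 by limma, and tRNA-Ser-TGA-1-1 was not called by edgeR (adjusted p = 0.2).

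Another 3 raised loci had mean counts between 10.1 and 14.1 and overlapping groups. They were tRNA-Ile-AAT-1-7 (log2 change 1.22 ± 0.39), tRNA-Asn-GTT-3-3 (1.00 ± 0.31) and tRNA-Gly-GCC-1-3 (0.87 ± 0.30). Their wild-type means were 5.64, 8.45 and 9.48 and their Phe11 means 13.4, 17.8 and 17.5, so each passed the filter on low values only through the group where it was high, and its call adds no support. tRNA-Ile-AAT-1-7 was tested in 4 of the 8 fits that left out 1 library. Each lost its call once the curve along the level was removed, with adjusted p of 0.138, 0.102 and 0.213 by limma. The log2 changes were then 0.96, 0.78 and 0.65. Level and direction moved together over the whole table. The median log2 change was 0.17 in the third of loci with the lowest counts (means 10.1 to 25.1), 0.06 among the loci in the middle and -0.06 in the third with the highest counts, where 8 calls were lower and 2 higher. Across the 209 loci, which share the same libraries, Spearman's rho of level and log2 change was -0.372. After removal of the curve, 15 of the 22 calls were left.

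The study asked whether other tRNAs take part when phenylalanine tRNA is short, and a set of 103 loci carries anticodons that read codons 1 base away from those of phenylalanine (Leu-AAG, Leu-CAA, Leu-TAA, Ile-AAT, Val-AAC, Ser-AGA, Tyr-GTA and Cys-GCA). Of these, 42 were tested. There were 2 higher (tRNA-Leu-CAA-1-1 and tRNA-Ile-AAT-1-7), 3 lower (tRNA-Tyr-GTA-2-1, tRNA-Tyr-GTA-4-1 and tRNA-Cys-GCA-3-3) and 37 that did not pass, a share called close to the 10.5% of all loci. Of the higher ones, tRNA-Ile-AAT-1-7 passed the filter only through its Phe11 values. The median log2 change of the set was 0.08, beside 0.06 for all loci.

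By amino acid, between 0 and 2 loci were called in each direction, beside 3.83% of all loci tested called higher and 6.7% lower. Leucine had 2 of 19 tested loci higher and none lower, with a median log2 change of 0.05. Serine had 2 of 17 higher and 1 lower (median 0.08). Arginine had 2 of 18 lower and none higher (median -0.11), and tyrosine 2 of 8 lower (median 0.08). No locus was called among the 8 glutamine, 11 glutamate, 13 lysine, 12 proline, 10 threonine, 6 tryptophan and 10 valine loci tested. Of the 9 genes for the initiator methionine tRNA, which starts protein synthesis, 5 were tested, with log2 changes between -0.11 and 0.24 that did not pass. The selenocysteine gene tRNA-SeC-TCA-1-1 had 49.7 normalised counts in wild type and 46.1 in Phe11 (log2 change -0.10 ± 0.17, SE).

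To ask whether these changes were shared by another tissue, the Phe11 effect was compared with that in brain in a joint edgeR quasi-likelihood fit of tissue and genotype on recovered reads. The effect differed between the tissues at 16 of 206 loci (7.77%). tRNA-Asp-GTC-1-7 and tRNA-Ala-TGC-4-1 were among them. At tRNA-Ala-TGC-4-1 wild-type brains had 84.0 ± 14.1 and Phe11 brains 83.6 ± 8.36 normalised counts (SD, n = 4 each), and the log2 change in liver minus that in brain was -2.46. In liver this locus and the deleted gene passed the filter only through wild type, so their test is taken from the same fit without the filter, chosen after seeing the data, which called 19 of 381 loci (4.99%). There the difference at tRNA-Ala-TGC-4-1 was -2.34 (adjusted p = 1.95e-12 by edgeR). At tRNA-Asp-GTC-1-7 the brain values were 136 ± 18 and 113 ± 9.15 (SD, n = 4 each), a brain log2 change of -0.26 (limma, adjusted p = 0.0414), and the difference between tissues was -2.10 (adjusted p = 7.13e-13 by edgeR).

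The deleted gene itself lost a larger share in liver. In brain it went from 108 ± 9.29 (SD, n = 4) to 36.7 ± 5.83 (SD, n = 4), and the difference between the tissues was -1.62 on the log2 scale, or -1.51 in the fit without the filter (adjusted p = 0.00853 by edgeR). tRNA-Asp-GTC-1-6 and tRNA-Ala-TGC-2-1 fell in brain too, by 0.35 and 0.33 on the log2 scale (limma, adjusted p = 0.0399 and 0.0228). Their differences between the tissues, in the fit without the filter, were -1.61 and -1.71 (adjusted p = 0.00497 and 0.00724 by edgeR). Of the 4 fallen loci, 3 were thus called lower in brain, where 13.3% of all loci tested were, and tRNA-Ala-TGC-4-1 was not. Among the raised genes, tRNA-Asp-GTC-1-5 had a brain log2 change of -0.09 and a difference of 0.79 (adjusted p = 0.0201 by edgeR), whereas tRNA-Leu-CAA-1-1 and tRNA-Leu-TAG-2-1 had brain changes of 0.43 and 0.42, and their differences of 0.05 and 0.20 did not pass.

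**Figure D5:**
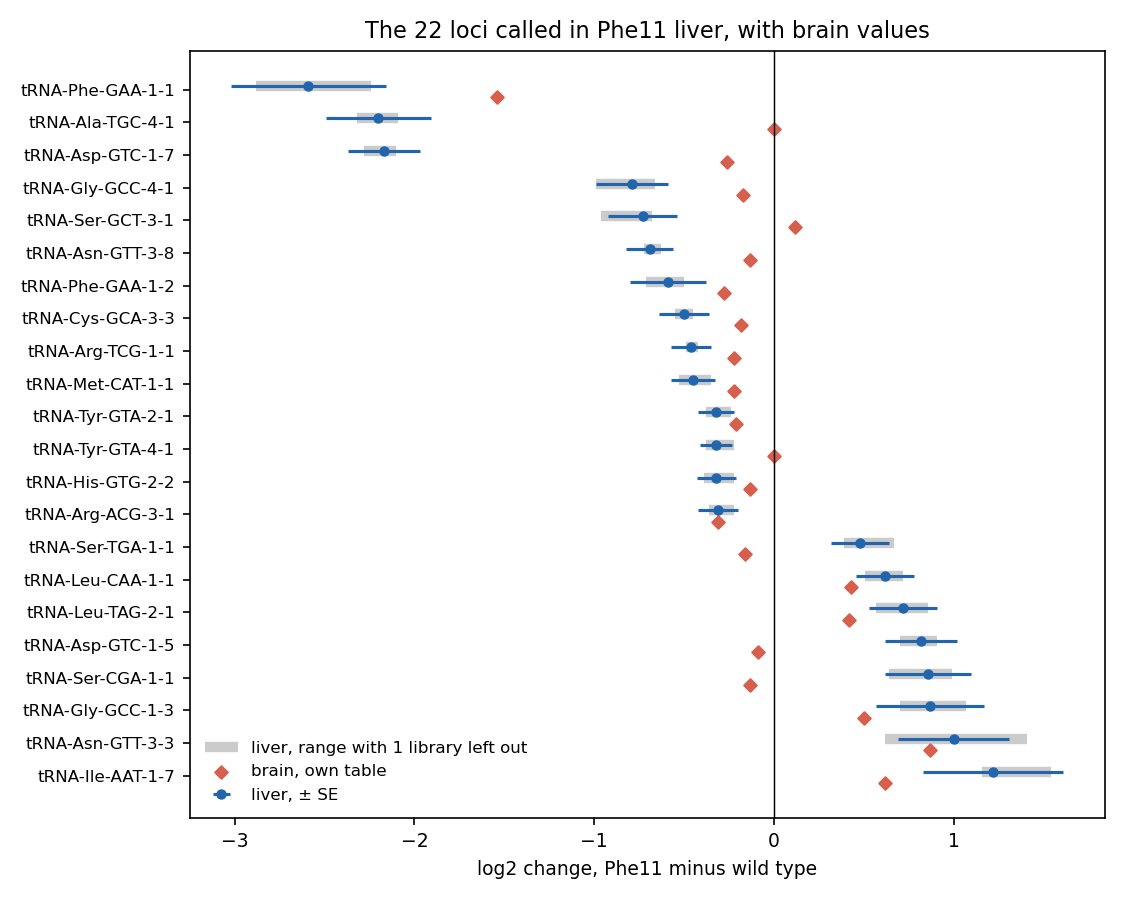
Log2 change, Phe11 minus wild type (horizontal axis), of the 22 loci called in liver, as circles with SE bars and a grey bar for the range when 1 library is left out, with the brain log2 change from its own table as diamonds. At tRNA-Ala-TGC-4-1 liver has -2.20 and brain 0.00, and at the leucine genes both tissues lie above 0.

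The liver changes were set beside those in livers without another tRNA-Phe gene, tRNA-Phe-GAA-2-1 (Phe21). That comparison shares wild-type replicates 1, 3 and 24 with the Phe11 comparison, so each is given by its own values. The log2 changes in Phe11 and Phe21 were -2.17 and 0.43 at tRNA-Asp-GTC-1-7 and -2.20 and 0.49 at tRNA-Ala-TGC-4-1. They were 0.82 and 0.97 at tRNA-Asp-GTC-1-5, -0.73 and -1.41 at tRNA-Ser-GCT-3-1, -0.79 and -0.69 at tRNA-Gly-GCC-4-1 and -0.69 and -0.54 at tRNA-Asn-GTT-3-8. At the intact gene tRNA-Phe-GAA-1-2 they were -0.59 and -0.53. The serine genes had 0.48 and 0.86 at tRNA-Ser-TGA-1-1 and 0.86 and 0.67 at tRNA-Ser-CGA-1-1. Smaller Phe21 values of the same sign stood at tRNA-Leu-TAG-2-1 (0.72 and 0.13), tRNA-Arg-TCG-1-1 (-0.46 and -0.27), tRNA-Cys-GCA-3-3 (-0.50 and -0.25), tRNA-Tyr-GTA-4-1 (-0.32 and -0.25), tRNA-Arg-ACG-3-1 (-0.31 and -0.18) and tRNA-Met-CAT-1-1 (-0.45 and -0.02). At the remaining called loci the signs were opposite, with -0.32 and 0.08 at tRNA-His-GTG-2-2, -0.32 and 0.19 at tRNA-Tyr-GTA-2-1, -2.59 and 0.46 at the deleted gene, 0.62 and -0.28 at tRNA-Leu-CAA-1-1, 1.22 and -1.44 at tRNA-Ile-AAT-1-7, 1.00 and -0.52 at tRNA-Asn-GTT-3-3 and 0.87 and -0.79 at tRNA-Gly-GCC-1-3. The last 3 Phe21 values come from the fit without the filter on low values.

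The knockouts were also set directly against each other in a joint edgeR fit, chosen after seeing the data, which called 33 of 209 loci (15.8%). The difference, Phe11 minus Phe21 on the log2 scale, was -2.54 at tRNA-Asp-GTC-1-7 (adjusted p = 5.23e-33 by edgeR) and -2.65 at tRNA-Ala-TGC-4-1. The filter was set on the wild-type and Phe11 libraries and the latter locus passed it only through wild type, and in the fit without the filter, which called 40 of 380 loci (10.5%), its difference was -2.76 (adjusted p = 1.93e-20 by edgeR). It was 0.85 at tRNA-Leu-CAA-1-1 (adjusted p = 5.61e-05 by edgeR). It was 3.36 at tRNA-Ile-AAT-1-7 and 1.77 at tRNA-Asn-GTT-3-3, which passed the filter only through Phe11, with mean counts of 13.4 and 17.8 in Phe11 and 1.80 and 6.06 in Phe21, so these are values without a test. At tRNA-Asp-GTC-1-5 it was 0.00 (adjusted p = 0.998 by edgeR) and at tRNA-Phe-GAA-1-2 it was -0.10 (0.856). All 3 Phe21 libraries are in batch 1, while Phe11 is in both.

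Livers labelled as lacking tRNA-Phe-GAA-3-1, sequenced as a separate batch with its own wild-type libraries, had low counts at the deleted gene of Phe11 as well. At tRNA-Phe-GAA-1-1 there were 29 reads in the 3 wild-type libraries and 2 in the 3 libraries labelled Phe31. The gene that the label names, tRNA-Phe-GAA-3-1, had 12.9 ± 2.87 and 9.74 ± 0.791 normalised counts with overlapping ranges (SD, n = 3 each; limma, adjusted p = 0.633), which goes against the label. In these libraries tRNA-Asp-GTC-1-7 had 17.8 ± 4.4 normalised counts in wild type and 5.49 ± 1.46 in the libraries labelled Phe31 (SD, n = 3 each), with a log2 change of -1.53. It passed the filter there only through wild type, and in the fit without the filter, where 2.9% of 379 loci were called lower, the adjusted p was 0.00342 by limma. tRNA-Ala-TGC-4-1 had 12.0 ± 1.29 and 4.35 ± 1.82 (SD, n = 3 each). Its log2 change of -1.35 did not pass in the fit without the filter (limma, adjusted p = 0.0565). tRNA-Asp-GTC-1-6 and tRNA-Ala-TGC-2-1, with 10 and 7 reads in the libraries labelled Phe31, had log2 changes of -0.02 and -0.36. Of the 11 loci with smaller losses in Phe11, 4 were called lower in that comparison, beside 8.99% of its 178 loci tested. Of these, tRNA-Met-CAT-1-1 had -0.72, tRNA-Arg-TCG-1-1 -0.46, tRNA-His-GTG-2-2 -0.43 and tRNA-Tyr-GTA-4-1 -0.25 (limma, adjusted p from 2.75e-05 to 0.0352). The other 7 were not called, with -0.56 at tRNA-Ser-GCT-3-1, -0.44 at tRNA-Cys-GCA-3-3, -0.31 at tRNA-Asn-GTT-3-8, -0.11 at tRNA-Gly-GCC-4-1, 0.06 at tRNA-Tyr-GTA-2-1, 0.09 at tRNA-Arg-ACG-3-1 and 0.21 at tRNA-Phe-GAA-1-2. The raised gene tRNA-Asp-GTC-1-5 had -0.02 and was not called either.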

How the data were processed

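ATAC-seq was performed on nuclei of liver tissue, and the table of tRNA loci for Phe11 liver was used with those for Phe11 brain, Phe21 liver and the livers labelled Phe31. Reads were trimmed (Trim Galore 0.6.4), aligned to GRCm38.p6 (Bowtie2 2.4.1, up to 20 alignments per pair), cleared of duplicates (Picard 2.23.8), filtered to a mapping quality of 30 or more and to fragments no longer than 175 nt, and counted over GtRNAdb high-confidence genes with 50 nt flanks (featureCounts 2.0.0), all by the authors. The deposited signal is this read count divided by 1 DESeq2 size factor per library, set within each table by the authors. Whole reads were recovered from the steps of these values (100% of values within 0.001 of a whole number, the Phe11 brain replicates 6, 13 and 14 by the same step). Peaks were called by the authors with Genrich 0.6, and the deposited log2 concentrations are their DiffBind 3.0.8 group means. The authors' fold changes and p-values, given for the listed peaks and for all loci, were not used. The deposited consensus list also holds a score, of which the scale is not stated and which was not used.

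The test was limma 3.58.1 in R 4.3.3, two-sided, with a trend and batch as a term, on log2(count + 1) of loci whose mean reached 10, with Benjamini-Hochberg adjustment over all loci tested and a threshold of 0.05. A fold on this scale understates the change of low loci. Tissues were compared with edgeR 4.0.16 on recovered reads, and DESeq2 1.42.0 was an alternative. Single values were compared with exact permutation tests over samples, and shares kept have conditional binomial intervals at 95%. Of these fits, only the main limma fit was tried on simulated counts, and its outcome is not given here. The named loci are the 7 tRNA-Phe loci, every called locus, the selenocysteine and initiator loci, tRNA-Arg-TCT-4-1 and the near-cognate list. The other tRNA-Asp-GTC and tRNA-Ala-TGC loci were added after their values were seen. The members, lists and tests were chosen with earlier results of these data known. Sequences came from the study's guide table and GRCm39, promoters and gene positions from RefSeq (GRCm38.p6). The tRNA-Phe names were tied to RefSeq genes by chromosome, order and equal spacing in both builds.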

Additional observations from a re-analysis of the deposited data

Results flagged for a closer look

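At tRNA-Arg-TCG-1-1 Phe11 replicate 21 had 126 normalised counts, far from the other 3 Phe11 libraries, which had 117 to 119, and at tRNA-Asp-GTC-1-5 Phe11 replicate 6 had 47.8 against 32.2 to 34.7. Both values were set apart by Dixon's criterion for 4 samples, which chance passes in about 1 of 20 groups, and 29 groups of values were examined. Neither call was lost without the library.

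The Phe11 effect differed between liver and brain by the edgeR interaction test at 11 of the named loci, beside 16 of all 206 loci tested (7.77%). The named loci include every locus already called in liver. The liver log2 change was below the brain change by the following differences: -1.62 at tRNA-Phe-GAA-1-1, -2.46 at tRNA-Ala-TGC-4-1, -2.10 at tRNA-Asp-GTC-1-7, -0.66 at tRNA-Gly-GCC-4-1, -1.04 at tRNA-Ser-GCT-3-1, -0.64 at tRNA-Asn-GTT-3-8, -0.47 at tRNA-Cys-GCA-3-3, -0.36 at tRNA-Arg-TCG-1-1 and -0.43 at tRNA-Tyr-GTA-4-1. It was above the brain change by 0.79 at tRNA-Asp-GTC-1-5 and by 0.90 at tRNA-Ser-CGA-1-1. The first 2 passed the filter on low values in liver only through wild type, and without the filter their differences were -1.51 and -2.34 (adjusted p = 0.00853 and 1.95e-12 by edgeR). In that fit tRNA-Gly-GCC-4-1, tRNA-Cys-GCA-3-3 and tRNA-Arg-TCG-1-1 did not pass (adjusted p = 0.179, 0.218 and 0.327 by edgeR). The liver table had a mean of 27.2 reads per locus and library and that of brain 65.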

How the results depend on the processing

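The count of 22 called loci (8 higher, 14 lower) was 14 (3 higher) with 3 close pairs of libraries averaged, 13 (3 higher) with a mean of at least 30, 11 (5 higher) with limma without trend, 8 (1 higher) and 5 (0 higher) within batches 1 and 2, and 5 (0 higher) by DESeq2. It was 17 to 25 under the other settings with all libraries, and 18 (8 higher, 10 lower) with the curve along the level removed. It ranged from 11 to 21 when 1 library was left out, which removes no sample where that library is wild-type replicate 1 or 22. It was 12 without wild-type replicate 3, 11 without wild-type replicate 24 and 13 without Phe11 replicate 6. Of the 22 calls, 7 held in every such fit in which the locus was tested. The close pairs, the curve, the direct comparison of Phe11 with Phe21 and the joint fits without the filter were chosen after seeing the data. No result that passed its threshold changed direction under any of these settings.

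The exact tests could not reach 0.05 in smaller designs. The log2 change of the deleted gene within batches 1 and 2 was -2.37 and -2.71, and -2.66 with close pairs averaged (exact permutation p = 0.333, 0.333 and 0.1, the smallest possible in each), and -2.82 to -2.32 when 1 library was left out. The sum over the 7 tRNA-Phe loci was 89.1%, 85.8% and 86.7% of wild type in the same 3 settings and 86.6% to 88.4% when 1 library was left out. The sum over the 6 intact loci was 96.3% to 99.8%.

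With the replicate block, in which 3 sample numbers are shared by liver and brain libraries of 1 genotype (estimated correlation 0.0925), 19 loci differed between the tissues in place of 16, and without the filter on low values 19 did. Wild-type and Phe11 livers share no number. The sum over the genes near the deletion was not run, since only tRNA-Ala-TGC-2-1 among the genes beside it could be tied to a name in the table. At loci near 10 counts, changes of a few reads were not detectable at this depth.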
